A study of Mus musculus with 16 samples.

Results

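Foxp3+ CD4+ T cells are the regulatory T cells of the mouse, and Foxp3 is the transcription factor that defines them. In activated Foxp3+ cells, polysome-associated mRNA was set against cytosolic mRNA, gene by gene, with 2 arrays of the polysome fraction (arrays 14 and 16 by the numbers in the sample titles) and 2 arrays of the cytosolic fraction (arrays 13 and 15). These are 4 of the 16 arrays of the series, and all 16475 genes measured on them were compared. Genes were then described by 42 function classes, which together hold 2331 genes.

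The source of all cells was C57BL/6 mice with a Foxp3-GFP reporter knock-in, whose spleen and lymph node cells were sorted on CD4 and GFP to a purity of more than 97%. The activated Foxp3+ cells were stimulated for 36 h by plate-bound CD3 and CD28 antibodies, used at 5 µg/ml, together with recombinant human IL-2 at 100 U/ml. Activated Foxp3- cells were cultured in the same way, and Foxp3+ and Foxp3- cells used ex vivo were not cultured. To keep ribosomes on their mRNA, 100 µg/ml cycloheximide was used throughout the handling of ex vivo cells, whereas activated cultures received it only at their end. Cytosolic mRNA was taken directly from the extract and so includes the mRNA on ribosomes, and the polysome fraction pooled the mRNA carrying 3 or more ribosomes. RNA was amplified with a whole-transcriptome method before it was put on the arrays. Each ex vivo sample pooled RNA of 2 experiments, and no such pooling is stated for activated cells. The array file names run in separate numbering series for ex vivo, activated Foxp3- and activated Foxp3+ cells. Both fractions of the activated Foxp3+ cells therefore lie in the same numbering series, whereas activated subset and numbering series cannot be told apart.

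An mRNA that is being translated carries several ribosomes at a time and sediments with the polysomes, whereas an mRNA that is stored, silenced or lightly loaded stays nearer the top of the gradient. The number of ribosomes on an mRNA depends on how often translation starts and on how long the coding region is. Activation through the T cell receptor drives resting T cells into growth and division, with higher protein synthesis, and mRNAs for the translation machinery are among the classical targets of growth-dependent translational control through mTOR. The values are log2 intensities normalized to nearly equal medians on all arrays (4.845 to 5.065), so a difference between fractions is relative to the other mRNAs, and a shift of all mRNA onto or off polysomes would not show. In such bulk samples a lower value in fewer cells and a lower value in every cell cannot be told apart.

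The T cell markers Cd3d, Cd3e, Cd3g, Cd4 and Thy1 all lay more than 2 log2 units above the array median on the 4 arrays, as did Foxp3, Il2ra, Ctla4 and Tnfrsf18 among the 5 defining regulatory T cell genes. Foxp3 measured 9.42 and 10.76 in polysomes (arrays 14 and 16, here and below), against 10.48 and 9.76 in the cytosol (arrays 13 and 15). Ikzf2, which encodes the transcription factor Helios, did not clear that mark on every array. Of the markers of other cells, none of the CD8 T cell, B cell, myeloid or erythroid genes lay that high on every array. Only Nkg7 of the NK cell list and Epcam of the stromal list did. In the myeloid list Cd74 and Lyz2 missed the mark on array 13 alone. Cd74 measured 8.02 and 8.94 in polysomes, against 6.49 and 7.83 in the cytosol, and Lyz2 7.44 and 7.76, against 5.71 and 7.38. No marker of any list differed between the fractions by the test below. The summed level of the myeloid list was 9.68 to 9.94 in polysomes and 9.22 to 9.60 in the cytosol (log2 of the summed intensity), and its part in the results was not tested. The log2 signal ratio of the 3′ to the 5′ actin probe sets was -0.40 and -0.26 on the polysome arrays, against -0.45 and -0.59 on the cytosolic arrays.

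In activated Foxp3+ cells 380 genes were higher in polysomes (2.31% of the genes tested) and 388 were lower (2.36%), at a Benjamini-Hochberg adjusted p under 0.05 in a limma fit over all 16 arrays. Without a test, both polysome arrays lay above both cytosolic arrays for 2729 genes (16.6%) and below them for 3555 genes (21.6%). All 768 called genes were of this kind. The median difference of the genes called higher was 1.88 on the log2 scale (3.69-fold), and that of the genes called lower was -1.56 (2.95-fold lower). Of the called genes 718 are protein coding in RefSeq and 14 are long noncoding RNAs. The plot of all genes by fraction shows these calls on both sides of the diagonal over the whole range of levels.

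**Figure D1:**
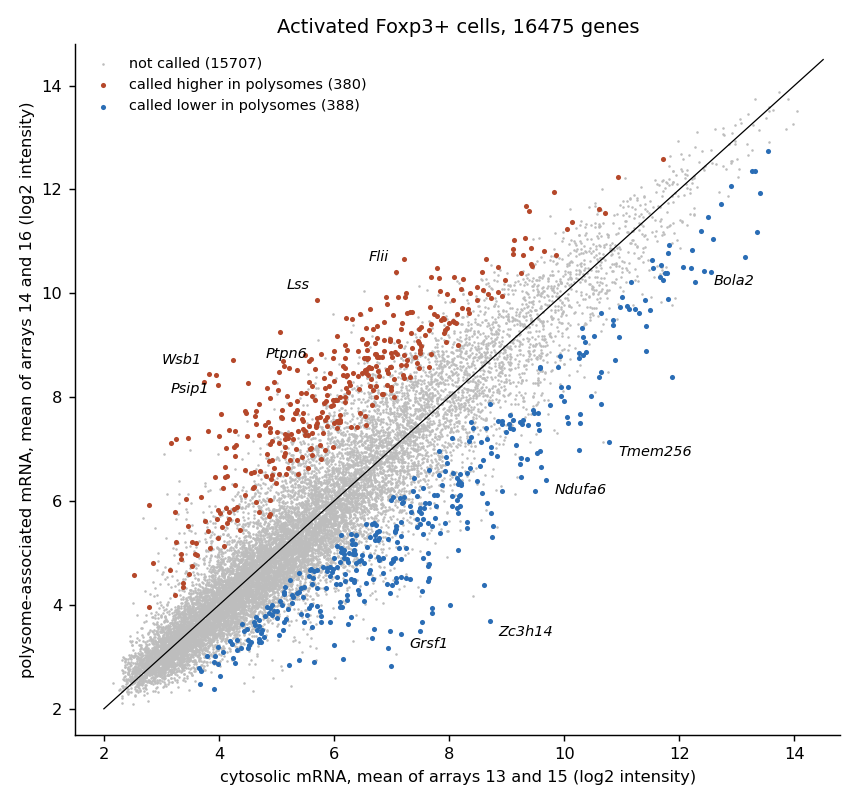
Each point is a gene in activated Foxp3+ cells, by its mean log2 intensity in polysome-associated mRNA (vertical axis, arrays 14 and 16) and in cytosolic mRNA (horizontal axis, arrays 13 and 15), with the line of equal values. The 380 genes called higher in polysomes lie above the line and the 388 called lower lie below it, and most genes follow the line.

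These calls rest on a spread estimated over all 8 groups. The mean variance between replicate arrays was 0.508 in the polysome and 0.471 in the cytosolic group of activated Foxp3+ cells, the highest of the 8 groups, against a mean of 0.231 over all groups, so the adjusted p-values of that fit are too small for these arrays. In a fit of only the 8 arrays of activated cells no gene passed 0.05, 1754 genes had an unadjusted p under 0.05, and the smallest adjusted p was 0.0638. At an adjusted p under 0.15 that fit called 38 genes, 21 higher and 17 lower, and all 38 were among the 768. The plot of spread and calls gives the counts for each fit. The arrays are described as biological duplicates, and p-values measure only the spread between them.

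**Figure D2:**
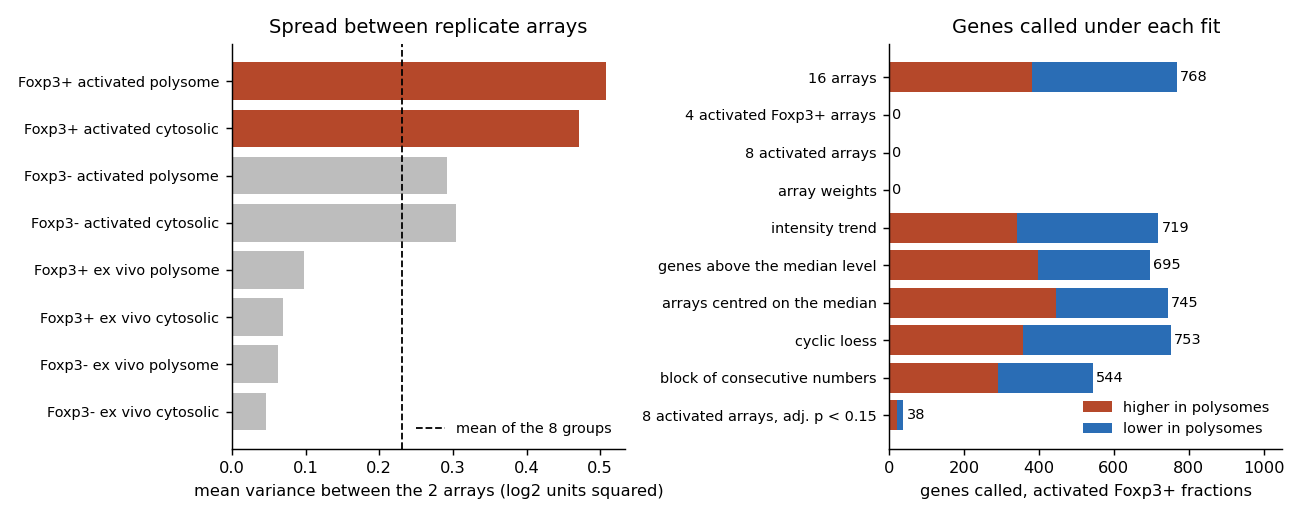
Left, mean variance between the 2 arrays of each group in squared log2 units, with activated Foxp3+ cells in red and the mean of the 8 groups (0.231) as a dashed line. Right, number of genes called higher (red) and lower (blue) in polysomes of activated Foxp3+ cells under each fit, 768 with all 16 arrays, 0 with the 4 or 8 arrays alone or with array weights, and 38 with the 8 activated arrays at an adjusted p under 0.15.

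The share of genes called was lowest among genes near background. It was 0.72% of the 4308 genes with a mean under 4 on the log2 scale, 7.91% of the 2111 genes from 6 to 7 and 11.2% of the 856 genes from 8 to 9. Above 11 the balance was uneven, with 4 of 235 genes called higher and 24 called lower. Over all genes the median difference was -0.0464, and among the 3258 genes with a mean over 7 it was 0.144. Of these more abundant genes 196 were called higher (6.02%) and 142 lower (4.36%). Their polysome arrays lay above both cytosolic arrays for 823 genes (25.3%) and below for 610 (18.7%). Classes of abundant genes were read against these shares, and classes with fewer abundant genes also against the 2.31% and 2.36% of all genes.

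Subunits of the respiratory chain and ATP synthase, the complexes of oxidative phosphorylation, had a negative difference for 37 of 59 measured genes. Of the 59 genes 11 were called lower and 1 higher, and the median difference was -0.46. The arrays lay apart below for 26 members and above for 10. With 57 of the 59 genes at a mean over 7, the class had 18.6% of members called lower, beside 4.36% of all genes over 7. The class lay higher than most of those genes, at a median level of 10.85. Among all genes, 19 of 311 from 10 to 11 and 24 of 235 above 11 were called lower, so the share over 7 is a low baseline for it. With 1 array left out, the median lay between -0.5629 and -0.3278, and 9 to 15 members were called. Among the accessory subunits of complex I, a grouping made after the values were seen, 8 of 28 were called lower and the median was -0.59. None of the 5 core subunits of complex I measured was called, and their median was 0.07. All 8 measured subunits of complex IV, cytochrome c oxidase, had a negative difference (median -0.57), although only Cox6a1 was called.

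Ndufa6, an accessory subunit of complex I, measured 5.88 and 6.94 in polysomes, against 9.74 and 9.61 in the cytosol. The polysome arrays were both far below the cytosolic arrays, and the groups did not overlap. Its difference was -3.27 ± 0.32 (standard error of the fit), a 9.62-fold lower value (adjusted p = 0.00181), and it also passed 0.15 with the 8 activated arrays (adjusted p = 0.145). Uqcr10, a small subunit of complex III, had 9.51 and 10.29 in polysomes, against 11.99 and 11.61 in the cytosol (difference -1.90 ± 0.32, adjusted p = 0.0095). Atp5e, the epsilon subunit of ATP synthase, measured 11.74 and 12.12 in polysomes and 13.34 and 13.48 in the cytosol, with close agreement between replicates (difference -1.47 ± 0.21, adjusted p = 0.00488). Ndufv3, Ndufa1, Ndufb9, Ndufa3, Ndufa13, Ndufa2 and Ndufb11, all of complex I, were called lower by 0.89 to 1.53.

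Atp5pb, the b subunit of the ATP synthase stalk, went the other way. It measured 10.06 and 9.97 in polysomes, against 6.81 and 7.68 in the cytosol, without overlap (difference 2.77 ± 0.39, 6.81-fold, adjusted p = 0.00437). The class had a lower median than all genes in the other comparisons of the fractions as well. It was -0.32 in activated Foxp3- cells with 6 members called lower, and -0.23 in ex vivo Foxp3+ cells with 0 called. Ex vivo replicates varied less than the pooled spread of the fit, so these counts cannot be compared directly.

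Cytosolic ribosomal proteins showed the lowest median of the 42 classes, at -0.51. Only 20 of the 83 listed genes were measured, and 18 of them had a negative difference. The polysome arrays lay below both cytosolic arrays for 12, beside 21.6% of all genes and 18.7% of all genes over 7. They lay above for 0, beside 16.6% and 25.3%. Of the 20 genes 3 were called lower, beside 2.36% of all genes and 4.36% of all genes over 7. A mean over 7 was reached by 13 of the 20, and the lowest mean was 3.84, for Rpsa. Rps9 measured 11.49 and 11.95 in polysomes, against 12.74 and 12.69 in the cytosol (difference -0.99 ± 0.24, adjusted p = 0.0457). Rps14 measured 12.73 on both polysome arrays, against 13.44 and 13.63 on the cytosolic arrays (difference -0.80 ± 0.17, adjusted p = 0.0232). These are small ribosomal subunit proteins of which the replicates agreed closely. Rps27l, a ribosomal protein-like gene induced by p53, had 6.38 and 6.69 in polysomes, against 7.99 and 8.16 in the cytosol (difference -1.54 ± 0.24, adjusted p = 0.00773). Rpl4 was the member with the highest difference, 0.33, and its arrays overlapped. The class median was -0.25 in activated Foxp3- cells and -0.55 in ex vivo Foxp3+ cells.

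Messenger RNAs of ribosomal proteins typically start with a C followed by a run of pyrimidines, the 5′ terminal oligopyrimidine motif, through which mTOR controls their entry into polysomes. At the start annotated by RefSeq (GRCm38.p6), a C followed by at least 4 bases that are each C or T was found for 361 of the 12585 genes matched by symbol (2.87%), and for 5 of the 16 ribosomal protein genes matched. The first 20 bases of these 5 show the motif, with the run of pyrimidines in capitals, and the annotated start need not be the start used in these cells.
Rpl14: CTTCTCgctgagcgccgcca
Rplp2: CTTTCgccgccggacgccgc
Rps6: CTCTTTTTCgtgacgcctcc
Rps15a: CTTCCCTCgccggtgagtga
Rpl15: CTTCCTTTCCTCTggcggca

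These lie at chr9:120571517-120571536 (plus strand), chr7:141447651-141447670 (plus), chr4:86857348-86857367 (minus), chr7:118116128-118116147 (minus) and chr14:18270967-18270986 (minus), in the order given, each at the start of the first exon. Rplp2, a protein of the ribosomal stalk, measured 13.12 and 13.19 in polysomes, against 13.79 and 13.93 in the cytosol (difference -0.70 ± 0.20, adjusted p = 0.0672). Rpl14 measured 8.73 and 8.75 in polysomes, against 9.20 and 9.10 in the cytosol (difference -0.41 ± 0.24, adjusted p = 0.379). The groups did not overlap for Rplp2, Rpl14 and Rps6, overlapped for Rps15a and Rpl15, and none of the 5 passed the test. Rps15a lay below the array medians on every array, and Rps6 did so in polysomes (3.86 and 4.20). Rpl15 measured 7.58 and 5.54 in polysomes, so values of these 3 genes are uncertain. Among all matched genes with a mean over 7, the 71 with the motif had a median of -0.15, with 23 entirely below (32.4%) and 10 called lower, and the 2529 without it had a median of 0.15, with 19% entirely below and 110 called lower. Among the ribosomal protein genes the order was the other way, with a median of -0.4107 and 0 called lower for the 5 with the motif and of -0.5295 and 2 called lower for the 11 without it. These shares describe the annotated letters and were not tested.

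Genes of the proteasome, which degrades ubiquitin-tagged proteins, had the highest median of all classes, 0.65, and 33 of 41 measured genes had a positive difference. Of the 41, 5 were called higher and 0 lower, beside 6.02% and 4.36% of all genes over 7. The arrays lay apart above for 21 and below for 4, beside 25.3% and 18.7% of all genes over 7. A mean over 7 was reached by 36 of the 41 genes. All 5 called genes are genes of the 19S regulatory particle or, for Psmd10, of its assembly. Of 14 non-ATPase (Psmd) genes, which include Psmd10 and so are not all subunits, 4 were called. Of 6 ATPases 1 was called, beside 0 of 12 genes of the 20S core (a grouping made after the values were seen). The arrays lay apart above for 8 of the 14 non-ATPase genes, 4 of the 6 ATPases and 6 of the 12 core genes. So few calls do not tell the parts of the proteasome apart. The median was 1.12 for the ATPases, 0.74 for the non-ATPases and 0.41 for the core. With 1 array left out, the class median lay between 0.369 (without array 13) and 0.7052, and 5 to 11 genes were called, with 10 called without array 13, 11 without array 15 and 9 without array 16.

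Psmd10, the assembly chaperone gankyrin, measured 7.45 and 7.93 in polysomes, against 3.95 and 5.00 in the cytosol. Its cytosolic values lay near or below the array medians, and the groups were far apart (difference 3.21 ± 0.41, adjusted p = 0.00325, and 0.145 with the 8 activated arrays). Psmd2, a scaffold of the 19S base, measured 9.58 and 9.31 in polysomes, against 6.63 and 7.09 in the cytosol (difference 2.59 ± 0.36, adjusted p = 0.00437). Psmd8 of the 19S lid measured 10.59 and 10.91 in polysomes and 9.10 and 9.11 in the cytosol, with little spread in either group (difference 1.64 ± 0.25, adjusted p = 0.0064). Psmc2 and Psmd6 were called with differences of 1.31 and 2.73. Psmg2, an assembly chaperone, had the lowest difference, at -1.85 ± 0.56, and did not pass (adjusted p = 0.0901). The class median was 0.31 in activated Foxp3- cells and -0.12 in ex vivo Foxp3+ cells.

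**Figure D3:**
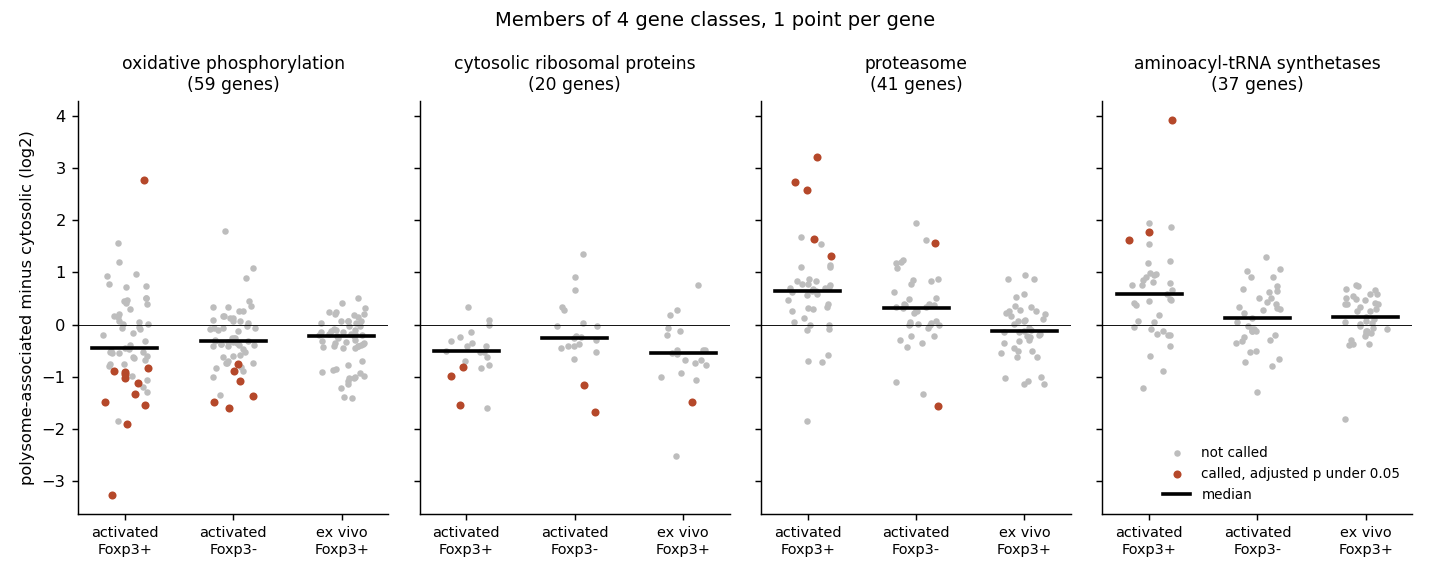
Polysome-associated minus cytosolic mRNA on the log2 scale (vertical axis) for each member of 4 gene classes, with activated Foxp3+ cells left of activated Foxp3- and ex vivo Foxp3+ cells, called members in red and the median as a bar. In activated Foxp3+ cells the medians are -0.46 for oxidative phosphorylation, -0.51 for cytosolic ribosomal proteins, 0.65 for the proteasome and 0.58 for aminoacyl-tRNA synthetases.

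Other classes of the translation machinery differed among themselves. Aminoacyl-tRNA synthetases, which charge tRNAs with amino acids, had a median of 0.58. Of 37 genes 3 were called higher (8.11%) and 0 lower, beside 6.02% and 4.36% of all genes over 7. Without array 14, 7 were called. Iars2 of the mitochondria had the lowest difference, and 3 members lay entirely below. Iars, the isoleucyl-tRNA synthetase, measured 6.82 and 7.55 in polysomes, against 4.29 and 2.23 in the cytosol (difference 3.93 ± 0.75, adjusted p = 0.0165). The groups did not overlap, but the cytosolic arrays disagreed by over 2 log2 units. Rars, the arginyl-tRNA synthetase, and Aimp2, a scaffold of the multisynthetase complex, were called with differences of 1.77 and 1.62. Translation initiation factors had 3 of 45 called higher, beside 6.02% of all genes over 7, and 0 lower (median 0.31), with 8 called without array 14 and 1 without array 3. Eif4a3, an RNA helicase of the exon junction complex, measured 11.52 and 11.56 in polysomes, against 10.82 and 10.58 in the cytosol (difference 0.84 ± 0.18, adjusted p = 0.0275). Eif2ak1, the heme-regulated kinase that phosphorylates eIF2α, and Eif2b3, a subunit of its exchange factor, were the other two. None of 16 elongation and termination factors was called, and Eef2, the translocation factor, had a difference of -0.07 and Eif5a of -0.04.

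Among factors that build ribosomes, 3 of 50 were called in each direction (6.0%), beside 6.02% higher and 4.36% lower of all genes over 7. Polr1b, the second largest subunit of RNA polymerase I, measured 8.14 and 7.76 in polysomes, against 5.98 and 5.37 in the cytosol (difference 2.28 ± 0.32, adjusted p = 0.00427). Nop10, a small protein of the box H/ACA particles that modify ribosomal RNA, measured 10.46 and 10.17 in polysomes and 11.95 and 11.37 in the cytosol (difference -1.35 ± 0.22, adjusted p = 0.00841). Both sets of arrays were apart without overlap. Of 60 genes of tRNA modification and processing, 3 were called higher and 3 lower, beside these shares and the 2.31% and 2.36% of all genes. Ftsj1, a tRNA ribose methyltransferase, measured 9.22 and 9.13 in polysomes, against 5.46 and 6.65 in the cytosol (difference 3.12 ± 0.35, adjusted p = 0.00203, and 0.145 with the 8 activated arrays).

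Mitochondrial ribosomal proteins, which form the separate ribosome of mitochondria, split between the directions. Of 72 genes 6 were called higher (8.33%) and 3 lower (4.17%), beside 6.02% and 4.36% of all genes over 7. The class median was -0.07. The median was 0.0414 without array 13, and 17 members were then called. Mrps24 measured 8.96 and 9.77 in polysomes, against 11.26 and 11.59 in the cytosol (difference -2.06 ± 0.26, adjusted p = 0.0033). Mrpl19 measured 7.60 and 7.79 in polysomes, against 5.63 and 5.06 in the cytosol (difference 2.35 ± 0.38, adjusted p = 0.0079). Neither overlapped, and Mrps27, Mrpl30, Mrpl9, Mrpl16 and Mrpl46 were also called higher, by 1.91 to 2.48. Genes of mitochondrial import and protein quality control likewise had 2 of 43 called in each direction. Tomm40, the channel of the outer membrane, measured 8.90 and 8.87 in polysomes, against 7.08 and 6.65 in the cytosol (difference 2.02 ± 0.23, adjusted p = 0.00208, and 0.145 with the 8 activated arrays). Timm13, a small chaperone of the intermembrane space, measured 10.23 and 10.57 in polysomes, against 11.71 and 11.88 in the cytosol (difference -1.40 ± 0.22, adjusted p = 0.00673). Smdt1, which encodes the EMRE subunit of the mitochondrial calcium uniporter, belongs to the 38 genes above, with 7.34 and 8.38 in polysomes, against 10.76 and 10.53 in the cytosol (difference -2.78 ± 0.31, adjusted p = 0.00208).

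Glycolysis, fatty acid metabolism and the tricarboxylic acid cycle had 2 of 17, 3 of 27 and 2 of 24 members called higher and 0 lower, beside 6.02% and 4.36% of all genes over 7. The arrays lay entirely below for 3 members of the fatty acid class and for 4 of the cycle. Glycolysis and glucose uptake had 15 of 17 members with a positive difference and a median of 0.47. The arrays lay apart above for 8 and below for 0. Hk1, hexokinase 1, measured 9.51 and 9.40 in polysomes, against 7.74 and 8.44 in the cytosol (difference 1.36 ± 0.32, adjusted p = 0.0392). Pfkp, the platelet-type phosphofructokinase, was called with a difference of 1.15. The called genes were Cpt2, Hadh and Etfb of mitochondrial fatty acid oxidation and Idh3b and Ogdh of the cycle, where 0 to 3 genes were called with 1 array left out. In cholesterol synthesis, Lss, the lanosterol synthase, and Msmo1, a sterol oxidase, moved in opposite directions, at 4.17 ± 0.42 (adjusted p = 0.00185) and -1.81 ± 0.46 (adjusted p = 0.0489).

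**Figure D4:**
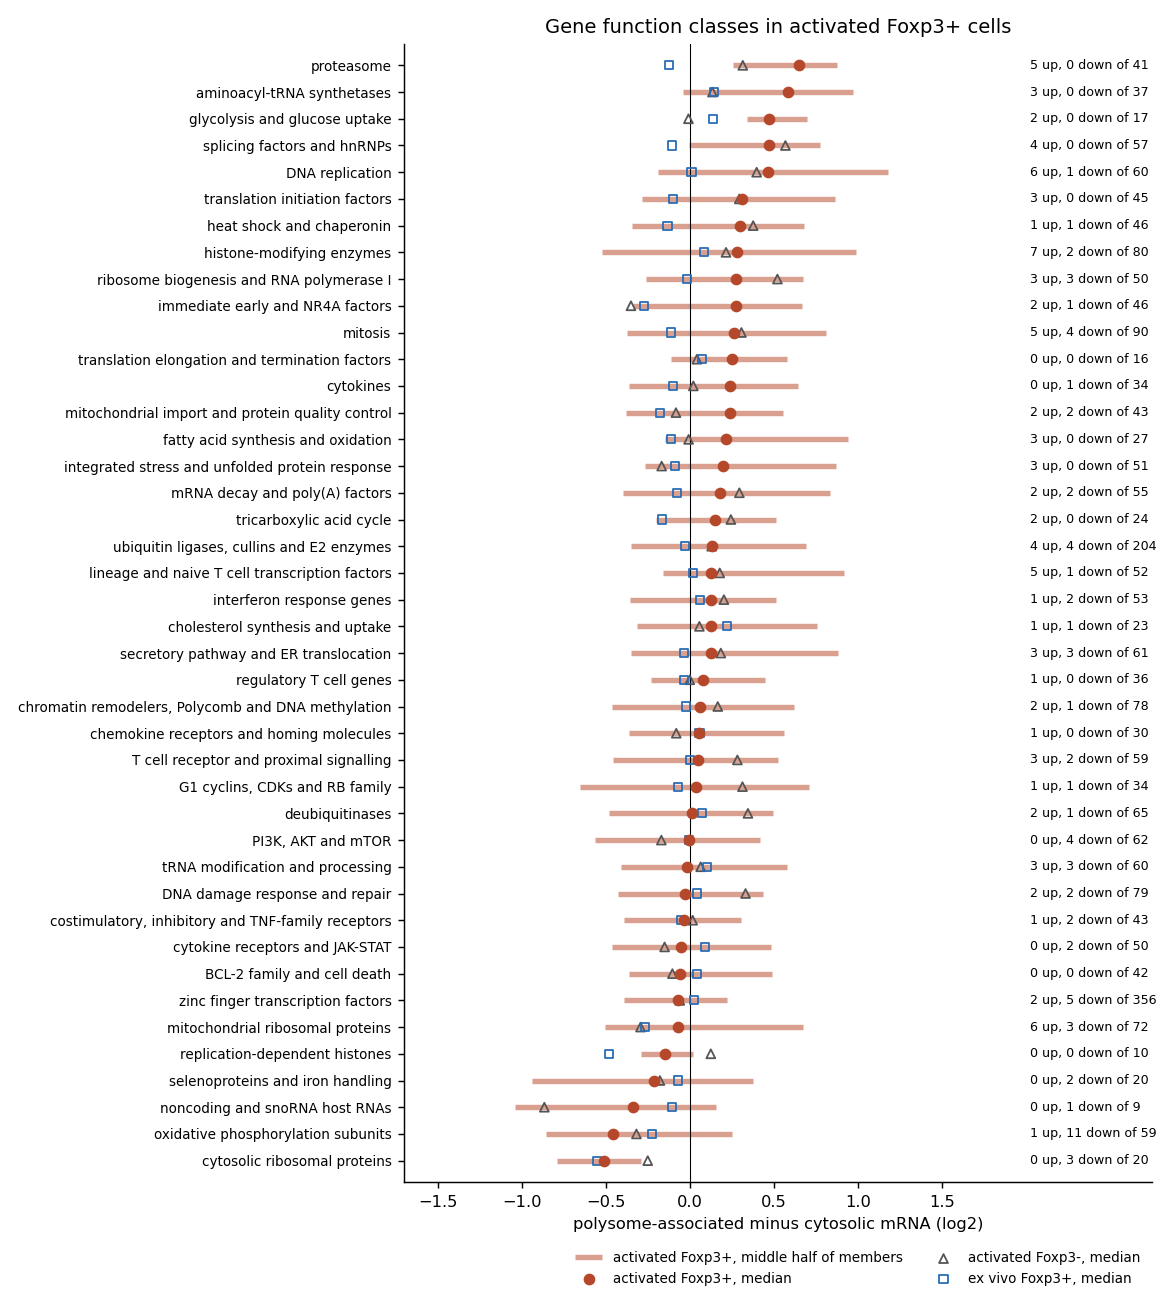
Median polysome-associated minus cytosolic difference on the log2 scale (horizontal axis) of each of 42 gene classes in activated Foxp3+ cells (filled circles, bars from the lower to the upper quartile of members), with the medians in activated Foxp3- cells (triangles) and ex vivo Foxp3+ cells (squares), and the number of members called up and down in activated Foxp3+ cells at the right. Medians run from -0.51 for cytosolic ribosomal proteins to 0.65 for the proteasome, and 29 of the 42 lie above 0.

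Over all 42 classes 90 members were called higher and 71 lower, 29 medians were above 0 and 13 below. In 10 classes calls went only upward, in 6 only downward, and 3 had none. When 1 of the 16 arrays was left out in turn, the median of 20 classes changed sign with at least 1 of the arrays 13 to 16, so that medians near 0 have no settled direction, and counts of a few calls moved by over 1.5 times in most classes. DNA replication had 6 of 60 called higher and 1 lower (median 0.46), beside 6.02% and 4.36% of all genes over 7. The median was 0.255 without array 16, and 13 members were called without array 13 or array 14. Cdt1, which loads the replicative helicase, measured 10.57 and 10.03 in polysomes, against 7.34 and 8.32 in the cytosol (difference 2.47 ± 0.34, adjusted p = 0.00423). Mcm10, Chaf1b, Rpa2, Pola2 and Rpa1, which act at replication forks, were also called higher, by 1.32 to 2.68. Pole4, a small accessory subunit of DNA polymerase epsilon, measured 5.35 and 6.26 in polysomes and 7.52 and 7.42 in the cytosol (difference -1.67 ± 0.29, adjusted p = 0.0106). The median of the class was 0.40 in activated Foxp3- cells and 0.01 in ex vivo Foxp3+ cells.

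Mitotic genes were called in both directions, 5 higher (5.56%) and 4 lower (4.44%) of 90. The shares were 6.02% and 4.36% among all genes over 7, and 2.31% and 2.36% among all genes. Pttg1, securin, measured 10.52 and 10.31 in polysomes, against 8.94 and 8.19 in the cytosol (difference 1.85 ± 0.27, adjusted p = 0.00479). Kif20a and Kif22, mitotic kinesins, Anapc2 of the anaphase-promoting complex, and Top2a, topoisomerase IIα, were also higher. The kinetochore component Nuf2, the spindle checkpoint protein Mad2l1, the centromeric histone Cenpa and the spindle protein Nusap1 were lower, by 1.69 to 2.05. Cep55 and Cenpo, of the midbody and the kinetochore, were among the 38 genes, with differences of 1.80 and 1.89. Ccne1, cyclin E1, measured 8.06 and 7.46 in polysomes, against 9.82 and 9.08 in the cytosol (difference -1.69 ± 0.30, adjusted p = 0.0106), and Rbl1, the RB relative p107, was called with a difference of 1.86.

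Splicing factors had 4 of 57 called higher, beside 6.02% of all genes over 7, and 0 lower. The median was 0.47 and 22 members lay entirely above, but the median was 0.2942 without array 15 and 0.2051 without array 16, and 7 and 9 members were called without array 13 and array 14. Sfpq, an RNA-binding protein of paraspeckles, measured 11.94 and 11.96 in polysomes, against 9.40 and 10.24 in the cytosol (difference 2.13 ± 0.35, adjusted p = 0.00807). Srsf2, Hnrnpr and Sf3b2 were called with differences of 2.34, 1.72 and 1.49. Of factors of mRNA decay and poly(A) tails, Edc3 and Khsrp were called higher, and Lsm3 and Lsm4, of the Sm-like rings, lower. Gas5, a noncoding RNA that hosts small nucleolar RNAs, measured 9.32 and 9.33 in polysomes, against 10.26 and 10.34 in the cytosol (difference -0.98 ± 0.22, adjusted p = 0.0291). It was the only 1 called of 9 noncoding RNAs measured.

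Enzymes that modify histones had 7 of 80 called higher and 2 lower, beside 6.02% and 4.36% of all genes over 7. Kdm5c, which demethylates lysine 4 of histone H3, measured 8.87 and 9.35 in polysomes, against 6.92 and 6.83 in the cytosol, with both groups tight (difference 2.23 ± 0.24, 4.70-fold, adjusted p = 0.00187, and 0.145 with the 8 activated arrays). Crebbp, an acetyltransferase coactivator, measured 7.68 and 7.72 in polysomes, against 5.30 and 5.36 in the cytosol (difference 2.38 ± 0.49, adjusted p = 0.0211). Hdac6, Sirt7, Setdb1, Hat1 and Riox1 were also called higher. Kmt2b, an H3 lysine 4 methyltransferase, measured 5.94 and 7.0 in polysomes, against 8.90 and 9.60 in the cytosol (difference -2.78 ± 0.45, adjusted p = 0.00807). Among chromatin remodelers and Polycomb proteins, Ring1 and Rbbp7 were higher and Chd3 lower.

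Of 36 regulatory T cell genes 1 was called higher and 0 lower, beside 2.31% and 2.36% of all genes. Most of the 36 had a mean over 7, where 6.02% of all genes were called higher and 4.36% lower. Nfil3, a basic leucine zipper factor, was that gene, with 11.59 and 11.14 in polysomes, against 9.83 and 10.45 in the cytosol (difference 1.23 ± 0.30, adjusted p = 0.0422). Foxp3 itself had a difference of -0.03 ± 0.52, and its arrays overlapped. Ctla4, an inhibitory receptor, measured 11.58 and 12.16 in polysomes, against 12.75 and 12.94 in the cytosol (difference -0.98 ± 0.58, adjusted p = 0.383), and Il2ra, the high-affinity IL-2 receptor chain, 10.43 and 10.02 in polysomes and 11.38 and 10.77 in the cytosol (difference -0.85 ± 0.29, adjusted p = 0.129). Neither passed, although the arrays did not overlap. Il10, which encodes an inhibitory cytokine, had a difference of -0.15 ± 0.78, and replicates too far apart to show a difference of that size.

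Of the transcription factors of T cell lineages and the naive state, 5 of 52 were called higher and 1 lower. The shares were 6.02% and 4.36% among all genes over 7. Ets1 measured 8.53 and 8.31 in polysomes, against 6.52 and 5.93 in the cytosol (difference 2.20 ± 0.27, 4.58-fold, adjusted p = 0.0027). Foxp1, Foxo1 and Tcf3, which keep lymphocytes quiescent or guide their development, were called with differences of 2.04, 1.82 and 1.31, and Nfil3 was the fifth. Zeb1, a zinc finger repressor, measured 4.09 and 3.59 in polysomes, against 7.39 and 8.0 in the cytosol (difference -3.86 ± 0.90, adjusted p = 0.0375, and 0.296 with the 8 activated arrays). The polysome values of Zeb1 were below every array median. Zinc finger factors of the large Zfp and Zbtb families, most of them at low levels, had 2 of 356 called higher and 5 lower.

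In T cell receptor signalling 3 of 59 genes were called higher and 2 lower. The shares were 6.02% and 4.36% among all genes over 7, and 2.31% and 2.36% among all genes. Ptpn6, the phosphatase SHP-1 that dampens receptor signalling, measured 8.31 and 8.79 in polysomes, against 5.88 and 5.46 in the cytosol (difference 2.88 ± 0.27, 7.37-fold, adjusted p = 0.00181, and 0.145 with the 8 activated arrays). The kinases Zap70 and Tec were also higher, with adjusted p-values of 0.0495 and 0.0232. Cd247, the zeta chain of the receptor, measured 7.41 and 5.95 in polysomes, against 8.71 and 8.35 in the cytosol (difference -1.85 ± 0.39, adjusted p = 0.0226), and Malt1, a protease of the NF-κB pathway, was the other gene called lower. In the PI3K, AKT and mTOR class 4 of 62 were called lower and 0 higher. They were Inpp4b and Tsc1, which restrain the pathway, and Lamtor1 and Lamtor4, of the complex that brings mTOR to lysosomes, with differences of -2.27, -1.33, -1.79 and -1.32.

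Cytokines had 1 of 34 called and cytokine receptors and JAK-STAT genes 2 of 50, beside 2.31% of all genes called higher and 2.36% lower. The cytokine was Csf1, with 5.08 and 5.25 in polysomes, against 6.19 and 6.44 in the cytosol (difference -1.14 ± 0.22, adjusted p = 0.0159). Tnf measured 7.36 and 6.85 in polysomes, against 8.60 and 8.07 in the cytosol, without overlap (difference -1.23 ± 0.38, adjusted p = 0.0978). Jak2 and Ifngr1, a receptor chain for interferon gamma, were the called receptor and JAK-STAT genes, both lower. Among immediate early genes Klf6, a zinc finger factor, measured 5.40 and 5.64 in polysomes, against 7.49 and 7.90 in the cytosol (difference -2.18 ± 0.28, 4.54-fold lower, adjusted p = 0.00341, and 0.145 with the 8 activated arrays). The kinase Pim2 and the NF-κB inhibitor Nfkbia were called higher, by 1.97 and 1.59. None of 42 genes of the BCL-2 family and cell death was called.

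In the integrated stress and unfolded protein response 3 of 51 were called higher and 0 lower. The shares were 6.02% and 4.36% among all genes over 7, and 2.31% and 2.36% among all genes. Mthfd2, an enzyme of mitochondrial folate metabolism, measured 8.19 and 8.76 in polysomes, against 6.27 and 6.69 in the cytosol (difference 1.99 ± 0.26, adjusted p = 0.00351), and Edem2 and Eif2ak1 were the others. Fkbp4, a cochaperone of HSP90, measured 11.34 and 11.84 in polysomes, against 9.54 and 9.24 in the cytosol (difference 2.20 ± 0.27, adjusted p = 0.00268), while its relative Fkbp5 was called lower, by 1.48. Of 20 genes of selenoproteins and iron handling 2 were called, both lower. Selenow, a small selenoprotein, measured 11.77 and 10.60 in polysomes, against 13.28 and 13.43 in the cytosol (difference -2.17 ± 0.38, adjusted p = 0.0103). In the secretory pathway 3 of 61 were called in each direction, beside the same shares. Among them were Stt3b, a catalytic subunit of the oligosaccharyltransferase, at 2.24 and Sec24d, a COPII coat protein, at -2.82.

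Of RNAs whose place in or out of polysomes is described in textbooks, 5 were measured and none was called. Atf4, whose upstream reading frames keep it lightly loaded outside stress, measured 7.79 and 8.46 in polysomes, against 8.85 and 8.29 in the cytosol (difference -0.44 ± 0.46, adjusted p = 0.648). Fth1, ferritin heavy chain, whose translation is held back by iron-regulatory proteins, measured 8.31 and 7.69 in polysomes, against 8.72 and 10.20 in the cytosol (difference -1.46 ± 0.45, adjusted p = 0.0932). Myc, a growth-promoting transcription factor, measured 11.80 and 10.84 in polysomes, against 10.74 and 9.82 in the cytosol (difference 1.04 ± 0.37, adjusted p = 0.142). The arrays of Fth1 and Myc lay apart, those of Atf4 overlapped, and Eif4e and Odc1 had differences of -0.29 and 0.25.

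**Figure D5:**
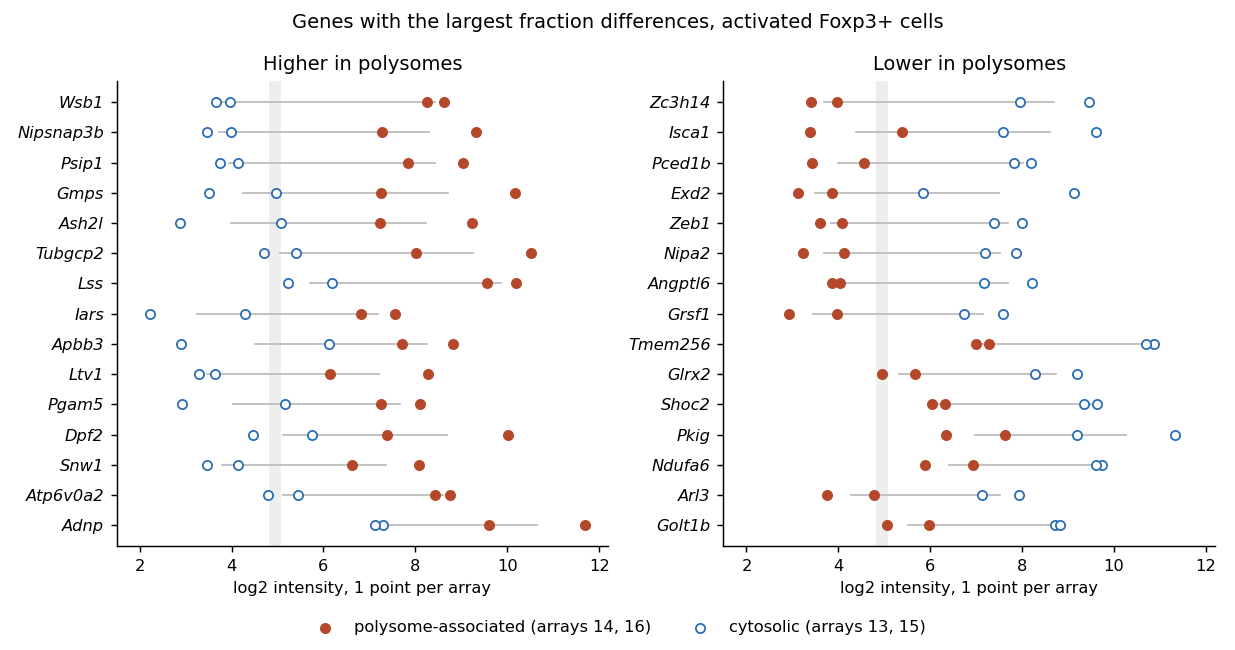
Log2 intensity (horizontal axis) on each array of activated Foxp3+ cells for the 15 genes with the largest difference in each direction, polysome-associated as filled and cytosolic as open circles, with the range of the array medians in grey. That the polysome and cytosolic arrays do not overlap was a condition for the choice of these 30 genes. The lower values mostly lie near or below the array medians, as for Wsb1 with 3.67 and 3.97 in the cytosol.

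The 15 largest differences in each direction, among called genes whose higher group had a mean over 7, are shown by array in the plot of the largest differences. A gene entered through its higher group, its difference and arrays that do not overlap. The size of these values and the lack of overlap therefore follow from the choice and are given as a description. Upward they began with Wsb1, a substrate receptor of ubiquitin ligases, which measured 8.25 and 8.63 in polysomes, against 3.67 and 3.97 in the cytosol (difference 4.62 ± 0.45, adjusted p = 0.00181). The cytosolic values lay below every array median, so no fold is given. Wsb1 had the smallest adjusted p of the fit with the 8 activated arrays, 0.0638. Psip1, a chromatin tether that reads methylated histone H3, measured 9.04 and 7.83 in polysomes and 4.14 and 3.76 in the cytosol (difference 4.49 ± 0.40, adjusted p = 0.00181). Gmps, the GMP synthetase, Ash2l, a subunit of H3 lysine 4 methyltransferase complexes, and Tubgcp2, of the γ-tubulin ring, differed by 4.48, 4.26 and 4.20, and the replicate arrays of each in polysomes lay about 2 log2 units or more apart. Ltv1, an assembly factor of the small ribosomal subunit, Snw1, of the spliceosome, Dpf2, of the BAF remodeling complex, and Adnp, a chromatin protein, also belong to this set.

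Downward the set began with Zc3h14, which binds poly(A) tails, with 3.98 and 3.40 in polysomes, against 9.44 and 7.96 in the cytosol (difference -5.01 ± 0.89, adjusted p = 0.0116, and 0.209 with the 8 activated arrays). Its polysome values lay below every array median, and no fold is given. Grsf1, of the mitochondrial RNA granules, measured 2.92 and 3.96 in polysomes, against 7.59 and 6.73 in the cytosol (difference -3.72 ± 0.39, adjusted p = 0.00187). Glrx2, a mitochondrial glutaredoxin, measured 5.67 and 4.95 in polysomes, against 8.27 and 9.20 in the cytosol (difference -3.43 ± 0.39, adjusted p = 0.00208). Isca1, of iron-sulfur cluster assembly, differed by -4.22. Golt1b, of Golgi transport, Nipa2, a magnesium transporter, Arl3, a small GTPase of cilia, and Shoc2, a scaffold of RAS signalling, were lower by 3.24 to 3.85. Of the 15 genes in each direction, 3 of those higher and 7 of those lower also passed 0.15 with the 8 activated arrays. The mean of the lower group was under 6 for 14 and 11 of them, where signal is close to the array medians and a fold is least certain.

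Among the 38 genes that passed 0.15 with the 8 activated arrays were further abundant ones. Bola2, which carries iron-sulfur clusters, measured 10.28 and 10.59 in polysomes, against 12.33 and 12.54 in the cytosol (difference -2.0 ± 0.21, adjusted p = 0.00187). Ifi27l2a, an interferon-inducible gene, measured 10.47 and 10.37 in polysomes, against 12.52 and 12.59 in the cytosol (difference -2.14 ± 0.25, adjusted p = 0.00219). Med11, of the Mediator complex, and Thoc7, of the complex that exports mRNA, were lower by 2.15 and 2.83. Flii, a gelsolin relative that binds actin, measured 10.23 and 10.61 in polysomes, against 7.01 and 7.14 in the cytosol (difference 3.34 ± 0.35, 10.1-fold, adjusted p = 0.00187). Rbm5, a splicing regulator, Nol9, a kinase of ribosomal RNA processing, Ppil1, a prolyl isomerase of the spliceosome, and Slc39a6, a zinc importer, were higher by 3.32, 3.06, 2.70 and 2.48.

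Whether the difference between fractions depended on activation was tested in Foxp3+ cells as the change between activated and ex vivo cells. The change was positive for 28 genes (0.17% of those tested) and negative for 18 (0.109%), at an adjusted p under 0.05. Ex vivo, 5 genes were called higher and 1 lower. The mean variance between ex vivo Foxp3+ replicates was 0.0693 in the cytosol and 0.0982 in polysomes, against 0.231 over all groups. P-values of the fit are therefore too large for ex vivo cells, and counts of calls in the 2 states cannot be compared directly. Nudt3, which hydrolyses inositol pyrophosphates and diphosphates, measured 8.91 and 8.76 in polysomes, against 7.67 and 7.69 in the cytosol of activated cells, and had a difference of 1.15 after activation and of -1.16 ex vivo (change 2.31 ± 0.25, adjusted p = 0.0142). Psip1 and Wsb1 had differences of -0.10 and -0.05 ex vivo and changed by 4.59 and 4.66. The adjusted p-values of the change were 0.0226 for Psip1 and 0.0302 for Wsb1. These counts were unstable, with 0 to 20 genes when an ex vivo array was left out and 0 with array weights, at 1392 genes with an unadjusted p under 0.05. Actin and Gapdh 3′ to 5′ signal ratios also differed between these states, at -0.59 to -0.26 for actin in activated and 4.16 to 4.64 in ex vivo Foxp3+ cells, and their part in the result was not tested.

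Between the activated subsets, the difference between fractions was more positive in Foxp3+ than in Foxp3- cells for 173 genes (1.05%) and more negative for 201 (1.22%). L3mbtl3, a reader of methylated lysines, measured 4.82 and 4.24 in polysomes of Foxp3+ cells, against 7.75 and 7.54 in their cytosol, a difference of -3.12, beside 3.38 in Foxp3- cells (difference between subsets -6.50 ± 0.64, adjusted p = 0.00309). Klf6 differed by -2.18 in Foxp3+ and by 1.35 in Foxp3- cells (difference between subsets -3.53 ± 0.40, adjusted p = 0.00458). Il2ra, chosen after its values were seen, differed by -0.85 in Foxp3+ and by 1.58 in Foxp3- cells (difference between subsets -2.43 ± 0.41, adjusted p = 0.018). With only the 8 activated arrays 0 genes passed, at 0.05 or at 0.15, in the limma fit, and 1373 had an unadjusted p under 0.05. The subsets lie in separate numbering series, so subset and series cannot be told apart in this comparison.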

How the data were processed

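The deposited values are log2 intensities, which the authors made from Affymetrix arrays by RMA in the affy package with probe sets redefined by Entrez gene; versions and whether all arrays were normalized together are not given in the sources used here. The table held 16539 features, 64 of them control probe sets that were not used. Of the remaining 16475 genes, 15780 had a symbol and 15752 had an Entrez ID in the RefSeq table (GRCm38.p6). Depth is not defined for arrays, and precision is limited by 2 arrays per group.

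Each of the 8 groups was given a mean in limma 3.58.1 (R 4.3.3, lmFit and eBayes, 8 residual degrees of freedom, no covariates), and contrasts gave the difference between fractions and its change with state or subset. P-values were two-sided and Benjamini-Hochberg adjusted over all genes, with a threshold of 0.05. Folds are 2 raised to the log2 difference. Tables and plots were made with Python 3.11.15, pandas 2.3.3, numpy 2.4.6 and matplotlib 3.10.9, and the fit was tested on simulated data. Gene classes were described by counts and medians, without a test.

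Named genes were the 15 largest called differences in each direction with a higher-group mean over 7 and no overlap (unnamed and predicted genes left out), up to 6 members per class by adjusted p, label checks, textbook cases and 8 genes per change between cells. Genes under 0.15 in the fit of the 8 activated arrays were added after seeing the data. Members and lists were chosen with earlier results of these data known. The study's own translation model was not run, and coding length was not described. Alternatives were the arrays in the fit, array weights, an intensity trend, a filter on low values, centring, cyclic loess, a replicate block and leaving out each array.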

Additional observations from a re-analysis of the deposited data

Results flagged for a closer look

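The 42 genes examined were those with the largest differences and those with the smallest adjusted p in the tests used here. Counts among them therefore follow largely from the choice and are given as a description. Of all 16475 genes tested, 46 passed for the change with activation and 374 for the difference between subsets. For 15 of the 42, the difference between polysome-associated and cytosolic mRNA differed between activated and ex vivo Foxp3+ cells. This was by the limma test of the change itself at an adjusted p under 0.05, with 8 changes positive and 7 negative. The positive changes on the log2 scale (activated minus ex vivo) were 4.66 for Wsb1, 4.59 for Psip1, 4.16 for Lss, 3.98 for Atp5pb, 3.93 for Tmem242, 3.48 for Rcc1l, 2.37 for Amn1 and 2.31 for Nudt3. The negative ones were -2.07 for Klhdc10, -2.35 for Klf6, -2.86 for Ndufa6, -3.23 for Glrx2, -3.81 for Pced1b, -3.84 for Grsf1 and -3.90 for L3mbtl3.

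For 24 of the genes the difference between fractions differed between activated Foxp3+ and activated Foxp3- cells by the same kind of test, 11 upward and 13 downward. The values, Foxp3+ minus Foxp3-, were 4.70 for Lss, 4.61 for Pgam5, 4.47 for Fam3a, 4.46 for Tmem242, 4.25 for Rcc1l, 4.16 for Tubgcp2, 4.05 for Nipsnap3b, 3.81 for Sirt7, 3.46 for Wsb1, 2.88 for Hgh1 and 1.66 for Nudt3. Downward they were -2.26 for Ndufa6, -2.74 for Klhdc10, -3.33 for both Glrx2 and Golt1b, -3.53 for Klf6, -3.54 for Pced1b, -3.71 for Grsf1, -4.18 for Nipa2, -4.67 for Etnk1, -4.97 for Shoc2, -5.83 for Zeb1, -6.50 for L3mbtl3 and -7.40 for Zc3h14. Zc3h14 and Zeb1 had opposite signs in the subsets, at -5.01 and -3.86 in Foxp3+ and 2.38 and 1.97 in Foxp3- cells. With only the 8 activated arrays none of these passed 0.05 or 0.15.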

How the results depend on the processing

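The 768 calls in activated Foxp3+ cells became 0 with only the 4 arrays, 0 with the 8 activated arrays (38 at an adjusted p under 0.15, an alternative chosen after seeing the data) and 0 with array weights, where 1463 genes had an unadjusted p under 0.05. No overlap without a test gave 6284 genes. An intensity trend gave 719, the filter on low values 695 and cyclic loess 753. Centring each array on its median gave 745, of which 59.9% were higher, against 49.5% in the reported fit. Leaving out an array gave 506 to 1371, with 1371 without array 14, 1238 without array 13 and 506 without array 3 or 7, of ex vivo Foxp3- cytosol. None of the 288 genes taken by the naming rules reversed its direction in an alternative where it was called there or in the reported fit. Other genes named in the text were not checked in this way. Called genes had arrays that did not overlap, and most alternatives leave the difference of group means as it is. The lack of reversals was therefore largely fixed in advance and is no check of direction. Of the 30 largest differences 25 to 30 stayed called when an array was left out. These 30 were chosen as called genes, and leaving out an activated Foxp3+ array raised all calls to 990 to 1371. With the 4 arrays, the 8 activated arrays or array weights, 0 of the 30 stayed called at 0.05.

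The 46 changes between activated and ex vivo Foxp3+ cells became 0 with array weights and 25 with a trend. Centring gave 63 (71.4% positive) and loess 51 (47.1% positive), against 60.9%. Leaving out an array gave 0 to 366. It was 0 without array 1, 3, 5 or 7, 2 without array 2, 1 without array 6, 20 without array 4 or 8, 70 or 75 without an activated Foxp3- array and 211 to 366 without an activated Foxp3+ array.

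The 374 differences between activated subsets became 0 with the 8 activated arrays, at 0.05 and at 0.15, and 5 with array weights. Loess gave 352 (34.4% more positive, against 46.3%). Leaving out an array gave 154 to 837, with 154 to 211 without an ex vivo array and 708 to 837 without an activated Foxp3+ array.

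The labels do not pair the arrays. Taking consecutive numbers as a replicate block gave 544, 0 and 182 genes in the 3 comparisons, and the deviations of so paired arrays correlated across genes at 0.0118 in activated Foxp3+ cells. The cause of these shifts was not tested.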
